A study of Rattus norvegicus with 4 samples.

Results

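Genes that write, erase, read or move chromatin were examined in the telencephalon, the front of the embryonic forebrain, of Pax6 mutant and wild-type rat embryos. They were the probe sets with a single gene symbol that begins with one of a fixed set of family names: Kdm, Kmt, Setd, Smarc, Arid, Chd, Hdac, Sirt, Ezh, Suz12, Eed, Dnmt, Tet, Kat, Brd, Cbx, Hmga, Hmgb or Hmgn. This name rule gave 211 probe sets for 118 genes, out of 20826 probe sets for 14217 genes with a single symbol and 31042 probe sets in all. The rule used no measured value. A further 8 probe sets that carry several symbols including one of these names were not taken, since their signal cannot be given to a single gene.

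The mutant embryos were homozygous for the rSey2 allele of Pax6 (Pax6 mutant, rSey2/rSey2), and the others were wild type (WT). Both were Sprague-Dawley embryos at E11.5, counted from the vaginal plug, and no further allele or agent is named. Each genotype had 2 one-colour Affymetrix arrays, labelled biological replicates 1 and 2. The design text speaks of 13 dissected telencephalons and of a repeat per genotype, so the tissue was pooled, and litters are not named; the p-values therefore measure only the spread between these arrays, which may be partly technical.

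Chromatin modifiers add or remove methyl and acetyl groups on histone tails and methyl groups on DNA, and reader proteins bind those marks. Remodellers use ATP to slide or evict nucleosomes. In the developing mouse cortex the BAF complex, a large SWI/SNF remodeller, works together with the transcription factor Pax6: the ATPase Smarca4 (BRG1) and the scaffold subunit Smarcc2 (BAF170) have been tied to Pax6-dependent gene programmes, and Smarcc1 (BAF155) competes with Smarcc2 for a place in the complex. The comparison asked whether transcripts of these complexes differ when Pax6 is mutated.

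Values are GCRMA values on the log2 scale as deposited, so a difference of 1 is a doubling. Differences are mutant minus WT, with the moderated standard error (SE) of limma. Probe sets with a mean under 3.21, the 40th percentile of the array, were left out as dim. Of the members, 186 probe sets for 113 genes were tested and 25 probe sets were dim, among them every probe set of Arid5a, Brd3os, Hmgb4, Kdm4c and Kdm4d. Brd3os, a transcript named for its position opposite Brd3, meets the name rule without being a chromatin protein by name. Each gene is described by its tested probe set with the highest mean, and other probe sets are given for the genes described at length.

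A GRCr8 promoter window from RefSeq, from 250 bases before to 50 bases after the start of the gene, was available for 98 of the 113 tested genes. The 7-letter core TTCACGC of the sequence bound by the paired domain of Pax6 was searched on both strands, and 3 of the 144 windows of these genes (2.1%) had it, against 432 of all 33469 windows (1.3%). Counted by gene, with any of its windows, these were 3 of 98 member genes (3.1%) and 389 of 27457 genes (1.4%), so the member count rests on 3 matches. A match is a description of the letters and not a binding site. Member windows were also richer in bases G and C, with a median of 61.8% against 51.7% over all windows. The base pair step CG, which the core holds, had a median count of 20 in member windows and 7 over all windows. The part of this composition in the shares was not tested. The 3 windows are shown because they are the member windows that hold these letters, with the core in capitals, 5′ to 3′ along the strand of the gene. They are Kat2b at chr9:6798895-6799194 (+ strand, core from base -127), Setdb2 at chr15:37782514-37782813 (- strand, core from base -76) and Kmt5a at chr12:37817977-37818276 (- strand, core on the opposite strand, from base -176).
Kat2b: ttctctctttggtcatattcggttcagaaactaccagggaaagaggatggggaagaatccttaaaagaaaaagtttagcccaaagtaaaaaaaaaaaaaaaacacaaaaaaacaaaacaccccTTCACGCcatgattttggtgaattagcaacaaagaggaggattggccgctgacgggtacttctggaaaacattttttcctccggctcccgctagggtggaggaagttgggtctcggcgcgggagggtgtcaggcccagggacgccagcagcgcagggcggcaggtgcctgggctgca
Setdb2: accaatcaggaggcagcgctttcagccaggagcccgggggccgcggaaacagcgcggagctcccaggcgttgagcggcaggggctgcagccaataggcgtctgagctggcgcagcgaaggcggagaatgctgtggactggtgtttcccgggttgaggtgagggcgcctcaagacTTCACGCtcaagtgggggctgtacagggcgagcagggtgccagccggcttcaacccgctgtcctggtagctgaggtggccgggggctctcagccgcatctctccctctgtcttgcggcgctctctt
Kmt5a: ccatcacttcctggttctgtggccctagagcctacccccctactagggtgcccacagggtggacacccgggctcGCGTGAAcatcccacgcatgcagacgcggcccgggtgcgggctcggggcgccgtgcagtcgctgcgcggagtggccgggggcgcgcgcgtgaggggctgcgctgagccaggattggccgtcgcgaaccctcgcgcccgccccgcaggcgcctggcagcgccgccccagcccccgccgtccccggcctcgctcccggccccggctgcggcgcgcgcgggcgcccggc

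Differences of chromatin genes between the genotypes were small. The largest difference of a tested member gene was 0.46 (Cbx1) and the lowest was -0.41 (Hmga2 and Sirt3), and none of the 113 reached 0.5 in size. Over all 9840 tested genes, 1.84% were at least 0.5 higher and 1.51% at least 0.5 lower in the mutant. The median size of the difference was 0.113 for member genes and 0.09 for all tested genes, so the typical member did not differ less. In limma, 0 of 186 member probe sets passed an adjusted p of 0.05, as did 0% of all 18625 tested probe sets, and every member had an adjusted p of 1. The unadjusted p was under 0.05 for 2 higher member probe sets (1.08%; 1.74% of all tested), of Smarcb1 and Smarcc2, and for 2 lower ones (1.08%; 1.91% of all tested), of Hmgn3 and Kdm3a. With 2 arrays a genotype, the smallest two-sided p of an exact permutation test is 0.333, and that test was not used.

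The 95% interval of the difference lay between -1 and 1 for 102 of the 113 genes, and between -0.5 and 0.5 for 49. For those 102 a doubling lay outside the interval, taken gene by gene. The 11 genes with wider intervals were Hmga2, Chd1l, Kdm5b, Kmt5a, Arid4a, Suz12, Arid3a, Kmt2a, Smarca1, Arid1b and Cbx1, for which a doubling or its opposite lay inside the interval.

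Both mutant arrays lay above both WT arrays for 24 of the 113 genes (21.2%), against 12.2% of all tested genes, and below them for 8 (7.08%), against 12.1% of all tested genes. These are counts with no test, and with both directions together the share was 28.3% of members and 24.3% of all tested genes. The same 4 arrays measured all the genes at once, so the genes do not count as separate observations. The median difference of the members was 0.036, beside 0.0 over all tested genes. Of all 9840 tested genes 4907 were higher and 4859 lower, which is also the background for the direction counts of classes and lists below. Among the members, 71 were higher, 41 lower and 1 equal. This lean towards higher values depended on single arrays: the median was 0.105 without mutant replicate 1 and 0.000 without mutant replicate 2, and 0.022 without WT replicate 1. In the 4 pairings of arrays, mutant replicate 2 exceeded WT replicate 1 in 75 member genes and WT replicate 2 in 74, whereas mutant replicate 1 exceeded WT replicate 1 in 65 and WT replicate 2 in 48. All tested genes shifted in the same direction in the pairings of mutant replicate 2 with WT replicate 1 (median 0.047, members 0.114) and of mutant replicate 1 with WT replicate 2 (median -0.045, members -0.039), and had a median of 0.0 in the remaining pairings (members 0.083 for mutant replicate 2 with WT replicate 2 and 0.023 for mutant replicate 1 with WT replicate 1).

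**Figure D1:**
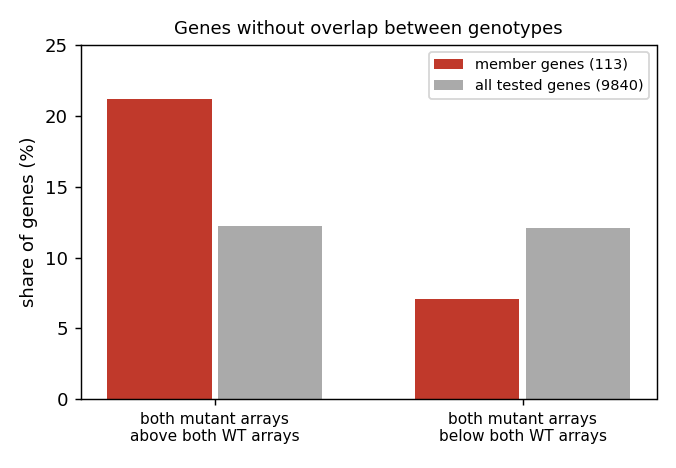
Share of genes (%) whose 2 mutant arrays both lay above, or both lay below, the 2 WT arrays, for the 113 tested member genes (red) and all 9840 tested genes (grey). The member share was 21.2% on the higher side against 12.2% of all tested genes, and 7.08% on the lower side against 12.1%.

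**Figure D2:**
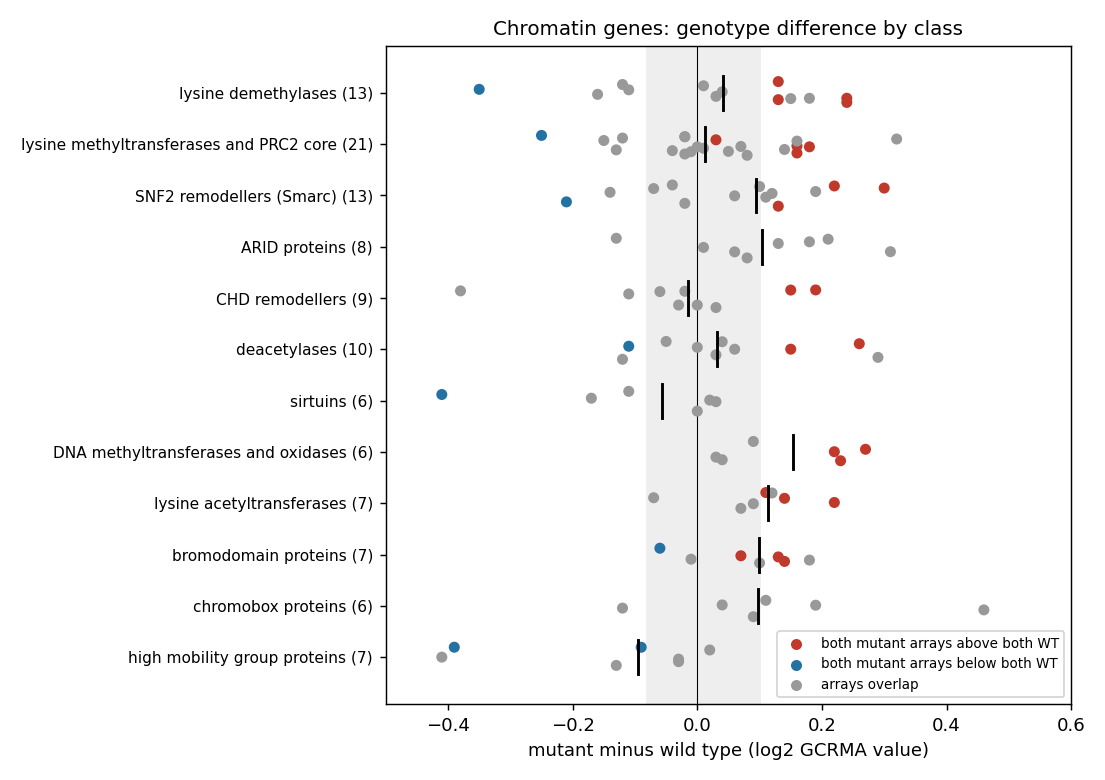
Difference of each tested member gene (mutant minus WT, log2 GCRMA value) by class, with the number of tested genes in brackets; black bars are class medians, and the grey band runs from -0.08 to 0.10, the quartiles of all tested genes. Red points had both mutant arrays above both WT arrays, blue points had both below, and every point lies between -0.41 and 0.46.

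Of 11 neuroepithelial markers, 9 were on the array by a single symbol and all 9 were tested, with summed linear values of 48881 and 48505 in the mutant arrays and 43873 and 43814 in the WT arrays. The 11 red cell markers on the array summed to 78247 and 78684 in the mutant arrays and 67579 and 68399 in the WT arrays. All 10 tested ones were higher in the mutant. Linear sums are carried by their brightest markers. These were Hbe1 and Hbz for red cells (differences 0.22 and 0.18). For neuroepithelium they were Vim, Sox2 and Lhx2 (differences 0.03, 0.22 and 0.30). Of the endothelial markers, 12 of 14 tested were higher, with sums of 4626 and 5393 in the mutant arrays and 4238 and 4266 in the WT arrays. Head mesenchyme markers summed to 7207 and 8371 in the mutant arrays and 8767 and 8638 in the WT arrays, surface ectoderm markers to 422 and 456 in the mutant arrays and 541 and 439 in the WT arrays, and postmitotic neuron markers to 1919 and 1880 in the mutant arrays and 1930 and 2323 in the WT arrays. Of 8 macrophage and microglia markers, 6 were dim on all arrays, among them Csf1r, Aif1 and Cx3cr1. The part of these shifts in the differences of chromatin genes was not tested, and in such bulk tissue fewer cells of a type and less RNA per cell cannot be told apart. Pax6 itself was at 11.78 and 11.63 in the mutant arrays and 11.75 and 11.85 in the WT arrays, which leaves the genotype labels without a check from its transcript.

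Among the subunits studied with Pax6, Smarca4, the ATPase that drives BAF in neural progenitors, had values of 11.65 and 12.04 in the mutant arrays and 11.64 and 11.82 in the WT arrays. The groups overlapped, and the difference was 0.12 (SE 0.18; 95% interval -0.44 to 0.68; limma adjusted p = 1), with -0.08 without mutant replicate 2. A second Smarca4 probe set was at 10.76 and 11.42 in the mutant arrays and 11.35 and 11.43 in the WT arrays, a difference of -0.30 that came from mutant replicate 1 alone, and the last differed by 0.11. The probe sets of Smarca4 therefore disagreed in sign within the spread between arrays.

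Smarcc2, the BAF170 scaffold, had values of 8.90 and 9.29 in the mutant arrays and 8.96 and 9.10 in the WT arrays on its brightest probe set. The mutant arrays enclosed the WT arrays, and the difference was 0.06 (SE 0.18; 95% interval -0.48 to 0.60; limma adjusted p = 1), with -0.13 when mutant replicate 2 was left out. A dimmer Smarcc2 probe set stood apart: 6.72 and 7.04 in the mutant arrays against 6.30 and 6.43 in the WT arrays, without overlap. Its difference was 0.51 (SE 0.15; limma adjusted p = 1), the largest of all 186 member probe sets. The remaining probe sets of Smarcc2 differed by 0.08 and -0.12, so a difference of that size was seen on 1 of 4.

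Smarcc1 (BAF155), the partner that shares a place in the complex with Smarcc2, was at 11.06 and 10.88 in the mutant arrays and 11.11 and 11.23 in the WT arrays. Both mutant arrays were lower, the closest pair by little. Leaving out a single array could therefore not change the sign of the difference. The difference of -0.21 (SE 0.11; 95% interval -0.54 to 0.12; limma adjusted p = 1) ran from -0.30 to -0.12 with single arrays left out.

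Smarcb1 (BAF47), a core subunit needed for BAF to hold the nucleosome, had the lowest unadjusted p of the BAF subunits under the name rule on its brightest probe set. Its values were 11.14 and 11.02 in the mutant arrays and 10.80 and 10.75 in the WT arrays. All pairings of arrays had the mutant higher, and the difference was 0.30, a 1.232-fold level (SE 0.08; limma adjusted p = 1). It ran from 0.24 to 0.36 with any 1 array left out, where the sign could not change because the genotypes did not overlap. Smarce1 (BAF57), an HMG-box subunit, was at 13.54 and 13.50 in the mutant arrays and 13.50 and 13.59 in the WT arrays on its brightest probe set, where the genotypes overlapped. A second Smarce1 probe set was at 12.66 and 12.69 in the mutant arrays and 12.53 and 12.47 in the WT arrays, a difference of 0.18 (SE 0.07) without overlap, and the last differed by -0.10, so its probe sets disagreed in sign.

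Smarca2 (BRM), the alternative BAF ATPase, was at 8.19 and 8.16 in the mutant arrays and 8.03 and 8.06 in the WT arrays, a small difference of 0.13 without overlap. Its 2 other probe sets were dim. The BAF60 subunits, which link the complex to transcription factors, differed by -0.04 (Smarcd1), 0.11 (Smarcd2) and 0.22 (Smarcd3). Smarcd3 was at 8.38 and 8.40 in the mutant arrays and 8.07 and 8.26 in the WT arrays, the only one of the trio without overlap.

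The ARID subunits decide between BAF and its PBAF form. Arid1a, found in BAF, was at 12.77 and 12.93 in the mutant arrays and 12.81 and 12.47 in the WT arrays, a difference of 0.21 (SE 0.16) with WT replicate 2 alone low, and its dimmer probe sets differed by -0.28 to 0.12. Arid1b, its paralogue, was at 11.88 and 10.72 in the mutant arrays and 11.42 and 10.58 in the WT arrays. Replicate 1 was the higher in both genotypes, and the difference of 0.31 (SE 0.56) was small beside the distance between arrays, and it was -0.27 without mutant replicate 1. Arid2, of PBAF, differed by 0.13 (SE 0.12) with overlap on its brightest probe set. A second Arid2 probe set was at 10.05 and 10.20 in the mutant arrays and 9.86 and 9.85 in the WT arrays, a difference of 0.27 (SE 0.09; limma adjusted p = 1) without overlap, whereas the last differed by -0.11. Among ARID proteins outside BAF, Arid5b differed by 0.18 (SE 0.15) and Arid3b by -0.13 (SE 0.10), both with overlap.

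Bromodomain subunits stayed close as well. Brd7, of PBAF, was at 11.20 and 11.30 in the mutant arrays and 11.04 and 11.19 in the WT arrays, without overlap, and Brd9, of the non-canonical complex, lay between 9.96 and 9.99 on all 4 arrays. Pbrm1, the polybromo subunit of PBAF, lies outside the name rule. Its 6 tested probe sets differed by -0.19 to 0.21.

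Across the whole BAF and PBAF list, 29 of 30 genes were on the array by a single symbol and 25 were tested. The difference was positive for 17, negative for 7 and nil for Ss18l1, with a median of 0.111. Of the 25, 6 were higher and 1 was lower without overlap, beside 12.2% and 12.1% of all tested genes, and 0 passed the adjusted p. The median was 0.035 without WT replicate 1 and 0.024 without mutant replicate 2, and it was 0.130 without WT replicate 2.

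BAF changes subunits as mouse progenitors become neurons, with Actl6a, Phf10 and Ss18 giving way to Actl6b, Dpf1, Dpf3 and Ss18l1. The progenitor subunits tested differed little: Actl6a was at 12.42 and 12.31 in the mutant arrays and 12.41 and 12.28 in the WT arrays. Ss18 differed by 0.06 (SE 0.20). Phf10 was on the list but had no probe set under a single symbol. Dpf2, present at all stages, differed by -0.02, and the non-canonical subunits Bicra and Bicral by -0.03 and -0.11. Of the neuronal subunits Actl6b, Dpf1 and Dpf3 were dim in both genotypes, and Ss18l1 was at 3.25 on all 4 arrays, just above the limit of 3.21. Bcl11b, a zinc-finger BAF subunit of later cortical neurons, was dim too.

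Bcl11a, the related zinc-finger subunit, had the largest difference of the BAF list. It was at 6.65 and 6.12 in the mutant arrays and 5.47 and 5.60 in the WT arrays, a difference of 0.85 (SE 0.23; limma adjusted p = 1), and its second probe set differed by 0.56 with overlap. With a pseudocount of 16 the difference was 0.68. Bcl7b, a small accessory subunit, was at 7.56 and 7.79 in the mutant arrays and 7.13 and 7.19 in the WT arrays, a difference of 0.52 (SE 0.12; limma adjusted p = 1). Its relatives Bcl7a and Bcl7c differed by 0.03 and 0.13. These genes were included as BAF partners and did not come through the name rule.

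**Figure D3:**
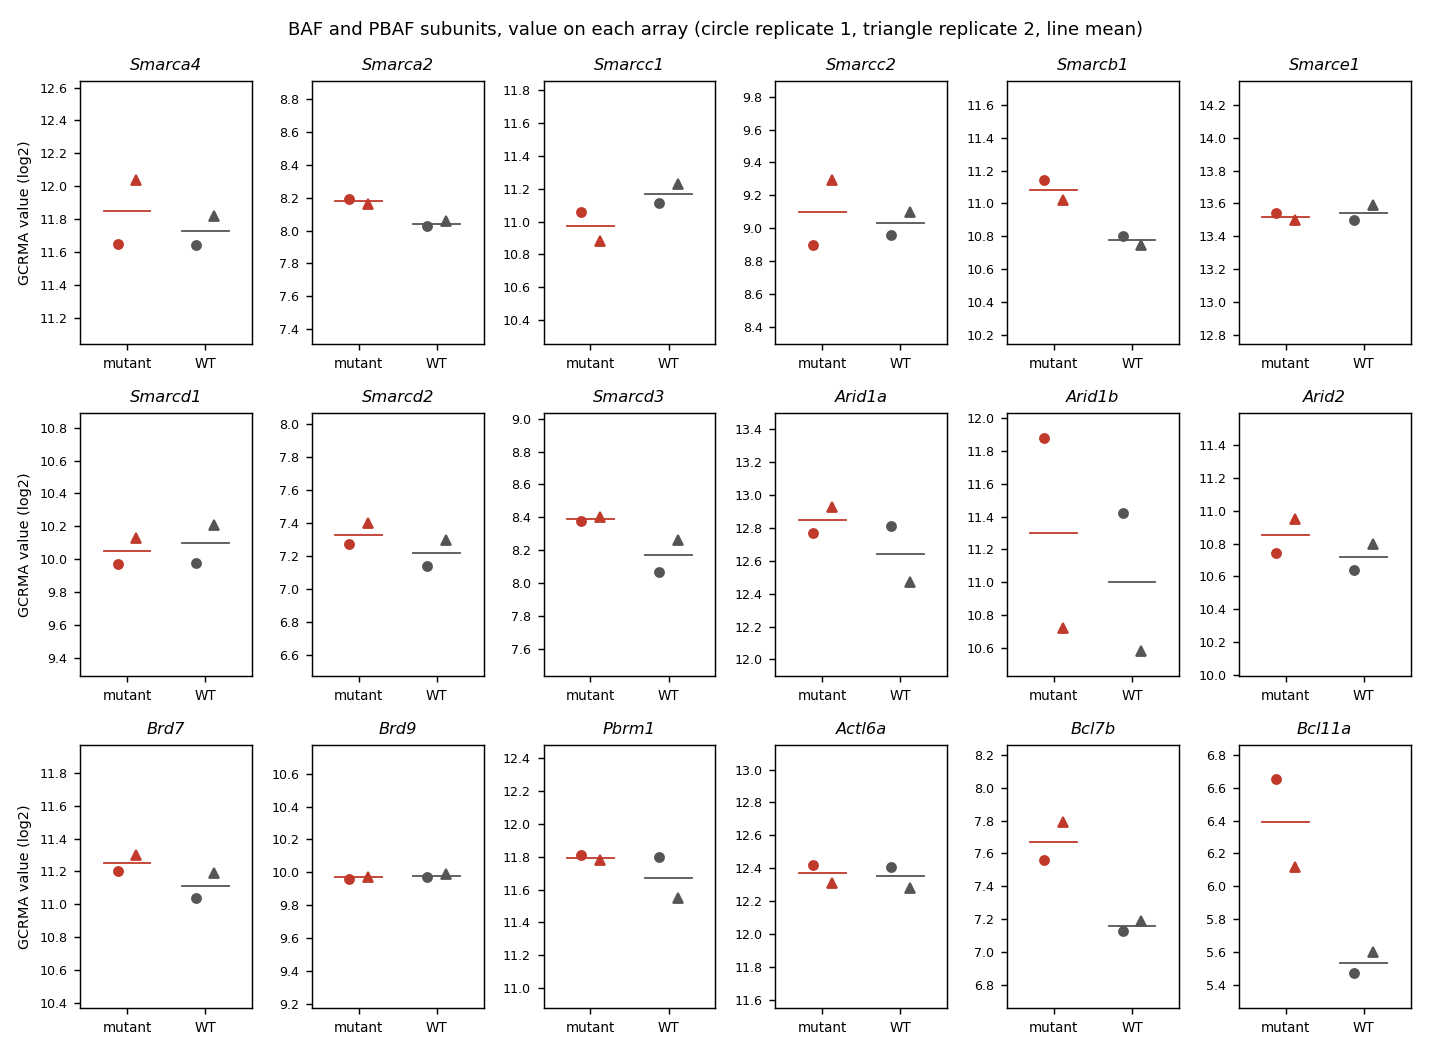
GCRMA value (log2) of 18 BAF and PBAF subunits on each of the 4 arrays, with mutant arrays in red at the left and WT arrays in grey at the right of each panel; circles are replicate 1, triangles replicate 2, and lines the mean of 2 arrays. All panels span 1.6 log2 units; Smarca2, Smarcb1, Smarcd3, Brd7, Bcl7b and Bcl11a show both mutant arrays above both WT arrays, and Smarcc1 shows both below.

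Smarca5, the ISWI ATPase, was at 12.67 and 12.44 in the mutant arrays and 12.75 and 12.50 in the WT arrays, and its 3 probe sets all lay between -0.19 and -0.07. Smarca1, the other ISWI ATPase, differed by 0.19 (SE 0.32) with WT replicate 2 low. Smarcad1, a further SNF2-type remodeller, differed by -0.14 (SE 0.13) on its brightest probe set, and its 3 probe sets ran from -0.14 to 0.04. Of the CHD family, 4 of 9 tested genes were higher and 5 lower, with a median of -0.015. Chd2 and Chd3 lay above WT without overlap, Chd2 by 0.19 (SE 0.09) and Chd3, a NuRD ATPase, by 0.15 (SE 0.08). Chd2's other probe set ran the opposite way, at -0.33. Chd4, the main NuRD ATPase, had 3 probe sets between -0.11 and 0.06. Chd7 and Chd8, in which human mutations disturb brain development, differed by -0.06 and -0.03 on their brightest probe sets, beside -0.16 and 0.11 on the others of Chd7 and 0.25 on the other of Chd8. Chd1l differed by -0.38 (SE 0.25), with WT replicate 2 high at 8.37 and the other 3 arrays between 7.58 and 7.84.

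Lysine methyltransferases and the Polycomb repressive complex 2 (PRC2), which lays down a repressive methyl mark on histone H3, were split as a class, with 11 of 21 higher and a median of 0.012. Ezh2, the PRC2 enzyme of dividing progenitors, was at 12.57 and 12.48 in the mutant arrays and 12.50 and 12.52 in the WT arrays, a difference of 0.01 with a 95% interval of -0.22 to 0.25. Eed, its scaffold, differed by -0.12 (SE 0.10). Ezh1, the enzyme's paralogue, was at 5.49 and 5.17 in the mutant arrays and 5.52 and 5.64 in the WT arrays, a difference of -0.25 without overlap on this probe set and 0.12 on its other. Suz12, the remaining PRC2 core gene, was at 11.74 and 10.45 in the mutant arrays and 11.49 and 10.59 in the WT arrays. Replicate 1 was the higher in both genotypes, and the genotypes could not be separated.

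Setd2, which methylates histones along transcribed genes, was at 9.41 and 9.54 in the mutant arrays and 9.31 and 9.32 in the WT arrays. Setd5 was at 10.50 and 10.52 in the mutant arrays and 10.34 and 10.36 in the WT arrays, a tight difference of 0.16 (SE 0.07), but its other tested probe sets differed by -0.03 and, also without overlap, by -0.37. Kmt5c, a histone H4 methyltransferase, differed most in the class at 0.32 (SE 0.20), with overlap. The mixed lineage leukaemia family genes Kmt2a to Kmt2e differed by -0.02 to 0.16 on their brightest probe sets. A dimmer Kmt2b probe set ran the opposite way, at 6.32 and 6.73 in the mutant arrays and 6.81 and 7.19 in the WT arrays. Its difference was -0.47 (SE 0.23) without overlap, against 0.14 on the brightest. A dimmer Kmt2e probe set lay at -0.47 (SE 0.62) with overlap, the same sign as its brightest at -0.02.

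Setdb2, one of the genes with the Pax6 core printed above, was at 8.01 and 8.0 in the mutant arrays and 7.89 and 7.77 in the WT arrays. Both mutant arrays were higher, and the difference was 0.18 (SE 0.08; limma adjusted p = 1). Kmt5a, which also carries it, was at 9.46 and 10.21 in the mutant arrays and 9.58 and 10.12 in the WT arrays, where replicate 2 was higher in both genotypes and the difference was -0.02 (SE 0.37).

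Of the lysine demethylases, 9 of 13 tested genes were higher and 4 lower, with a median of 0.041. Kdm3a, an oxygen-sensing demethylase of a repressive histone H3 mark and a known target of hypoxia-inducible factor in mammalian cells, stood out on the lower side. It was at 10.42 and 10.20 in the mutant arrays and 10.62 and 10.71 in the WT arrays, a difference of -0.35 or 0.783 of the WT level (SE 0.11; limma adjusted p = 1). The size was between 0.24 and 0.46 with single arrays left out. The sign could not change there, since the arrays of the genotypes did not overlap.

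Demethylases on the higher side included Kdm6b, which removes the PRC2 mark, at 9.84 and 10.07 in the mutant arrays and 9.68 and 9.74 in the WT arrays (difference 0.24, SE 0.12). Kdm2b, which brings a variant Polycomb complex to unmethylated CpG islands, was at 11.32 and 11.65 in the mutant arrays and 11.30 and 11.20 in the WT arrays, the closest arrays being nearly equal. Kdm3b and Kdm1b both differed by 0.13 without overlap. Kdm1a (LSD1), needed in neural progenitors, differed by 0.03 (SE 0.17), and the 5 tested probe sets of Kdm5b spread from -0.19 to 0.39.

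All 6 tested genes of DNA methylation and its removal had positive differences, with a median of 0.153. Both mutant arrays were above both WT arrays for 3 of them, beside 12.2% of all tested genes, a count too small to read as a result about the class. Tet1 and Tet2 oxidise methylated cytosine. Tet1 was at 8.91 and 9.15 in the mutant arrays and 8.87 and 8.73 in the WT arrays, and Tet2 at 7.38 and 7.66 in the mutant arrays and 7.29 and 7.22 in the WT arrays. Their differences were 0.23 and 0.27 (SE 0.13 each; limma adjusted p = 1), and each was 0.12 without mutant replicate 2. Dnmt3b, a de novo methyltransferase, was at 6.93 and 7.33 in the mutant arrays and 6.91 on both WT arrays, so that 1 mutant array carried its difference of 0.22. Dnmt1, which copies methylation at replication, differed by 0.09 (SE 0.12). Dnmt3a differed by 0.03 on one probe set and -0.17 on the other.

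Acetyltransferases, which open chromatin, had positive differences in 6 of 7 tested genes, with a median of 0.113. Kat2b (PCAF), the remaining gene with the Pax6 core in its window, was at 8.31 and 8.36 in the mutant arrays and 8.15 and 8.08 in the WT arrays. The arrays of a genotype lay within 0.07 of each other, and the difference was 0.22 (SE 0.08; 95% interval -0.01 to 0.45; limma adjusted p = 1). Its paralogue Kat2a differed by 0.12 (SE 0.28) with replicate 2 the higher in both genotypes. Kat14 lay above WT by 0.11 and Kat5 (TIP60) by 0.14, both without overlap, although a WT array of Kat5 matched the lower mutant array at 10.48 after rounding.

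Histone deacetylases were mixed, with 7 of 10 tested genes higher and a median of 0.031. Hdac1 and Hdac2, the catalytic pair of NuRD and Sin3 complexes, differed by 0.00 (SE 0.15) and 0.04 (SE 0.13). Hdac3, of the NCoR complex, was at 10.72 and 10.65 in the mutant arrays and 10.50 and 10.58 in the WT arrays (difference 0.15, SE 0.08). Hdac5, a signal-responsive deacetylase, was at 7.79 and 7.75 in the mutant arrays and 7.38 and 7.65 in the WT arrays, with -0.14 on its other probe set. Hdac4, its relative, differed by 0.29 (SE 0.18) with overlap, and Hdac7 lay 0.11 lower without overlap.

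The NAD-dependent sirtuins held one of the lowest values. Sirt3, the main mitochondrial deacetylase and so mostly not a chromatin enzyme, was at 7.57 and 7.21 in the mutant arrays and 7.75 and 7.85 in the WT arrays. Both mutant arrays were lower, and the difference was -0.41 (SE 0.16; limma adjusted p = 1), with -0.23 without mutant replicate 2. Sirt5 and Sirt6 differed by 0.02 and 0.03, Sirt4 was at 4.76 on all 4 arrays, and Sirt2 and Sirt7 differed by -0.11 and -0.17 with overlap.

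**Figure D4:**
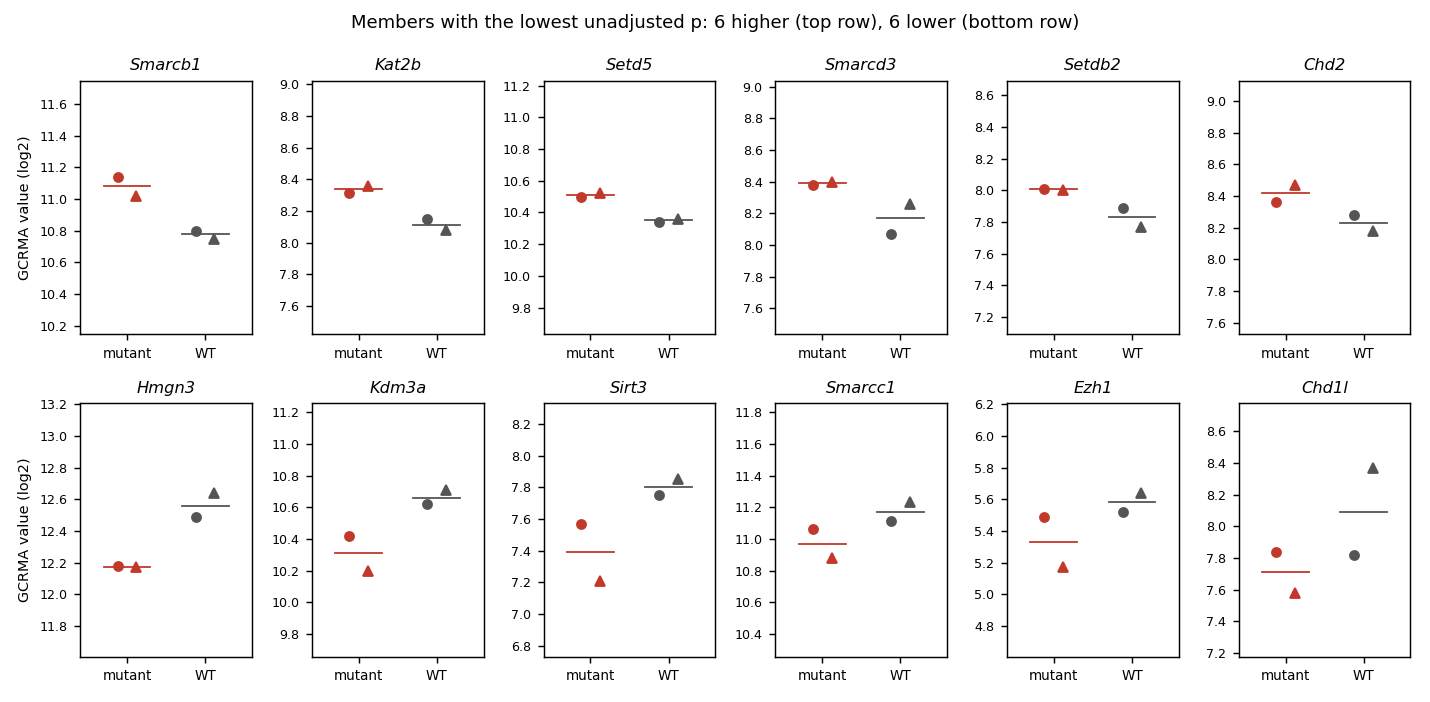
GCRMA value (log2) on each array for the member genes with the lowest unadjusted p, 6 higher in the mutant (top row) and 6 lower (bottom row), with mutant arrays in red at the left and WT arrays in grey at the right; circles are replicate 1, triangles replicate 2, and lines the means. Each panel spans 1.6 log2 units; all panels but Chd1l show no overlap between genotypes, and the means differ by 0.41 at most.

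Readers of histone marks differed little. Of the tested bromodomain genes 5 of 7 were higher, led by Brd3 at 0.18 (SE 0.15), and Brd1, a partner of acetyltransferases, lay 0.13 higher without overlap. Of the chromobox genes, 5 of 6 were higher. Cbx2, a Polycomb subunit, was at 9.52 and 9.91 in the mutant arrays and 9.36 and 9.69 in the WT arrays, and Cbx8, another Polycomb subunit, was the lower one at -0.12 (SE 0.11). Cbx5, the heterochromatin protein HP1 alpha, differed by 0.09 (SE 0.20). Among member genes by their brightest probe sets, Cbx1 (HP1 beta) had the largest difference and also the largest SE, 0.64. It was at 12.85 and 11.72 in the mutant arrays against 12.42 and 11.24 in the WT arrays. Replicate 1 exceeded replicate 2 by more than 1 in both genotypes. Its other probe sets differed by 0.19 and, without overlap, by -0.29, so Cbx1 has no settled direction.

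High mobility group proteins, small abundant architects of chromatin in progenitors, were the class with the highest share of lower values, 6 of 7 tested genes, with a median of -0.095. Hmgn3, a nucleosome-binding protein, had the lowest unadjusted p of all member probe sets. Its values were 12.18 and 12.17 in the mutant arrays and 12.49 and 12.64 in the WT arrays. The arrays of each genotype lay close together and well apart from the other genotype, so leaving out a single array could not change the sign. The difference was -0.39, or 0.763 of the WT level (SE 0.09; 95% interval -0.66 to -0.13; limma adjusted p = 1), and it ran from -0.46 to -0.32 with single arrays left out.

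Its relatives Hmgn1 and Hmgn2 lay at 15.20 and 15.18 and at 15.04 and 14.86 in the mutant arrays, against 15.18 and 15.17 and 15.02 and 14.93 in the WT arrays, with differences of 0.02 and -0.03. Hmga2, an AT-hook protein that keeps young neural progenitors dividing, was at 7.19 and 8.32 in the mutant arrays and 8.0 and 8.32 in the WT arrays. Mutant replicate 1 alone was low, and the difference of -0.41 (SE 0.47) was 0.16 without it. Hmga1 differed by -0.13 (SE 0.24), Hmgb3 by -0.03 and Hmgb1 by -0.09 (SE 0.08), the last without overlap.

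Arrays of a genotype often differed more from each other than the genotypes did. The mean size of the replicate difference within a genotype exceeded the genotype difference in 80 of 113 member genes (70.8%), beside 72.2% of all tested genes. The replicate difference compares single arrays and the genotype difference compares means of 2 arrays, so the first spreads wider by construction. In 4 of the 113 member genes replicate 2 was higher by over 0.5 in both genotypes, beside 168 of all 9840 tested genes. In 3 of the 113 it was lower by over 0.5 in both, beside 100 of the 9840, those 3 being Suz12, Arid1b and Cbx1. Arid3a was at 6.60 and 7.86 in the mutant arrays and 6.69 and 7.61 in the WT arrays, and Arid4a at 7.53 and 8.53 in the mutant arrays and 7.64 and 8.41 in the WT arrays. Of the 43 member genes with more than 1 tested probe set, 12 had all their probe sets on one side of 0 (7 higher and 5 lower), 30 had probe sets on both sides, and Ezh2 had none below 0 and 1 at 0. Among the 12, Arid1b had 3 probe sets from 0.23 to 0.31, Smarca5 3 from -0.19 to -0.07 and Kat6b 3 from -0.15 to -0.07.

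**Figure D5:**
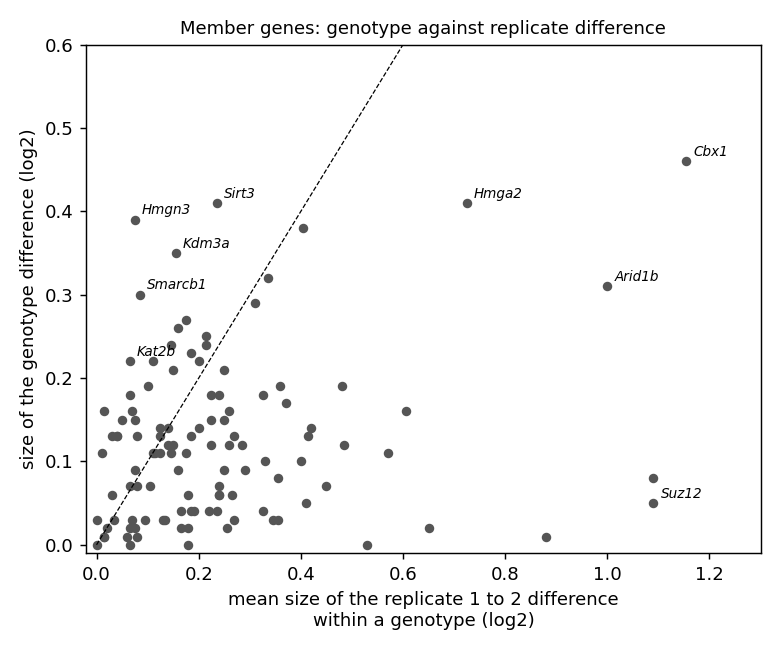
Size of the genotype difference (vertical axis, log2) against the mean size of the difference between replicates 1 and 2 within a genotype (horizontal axis, log2) for the 113 tested member genes; the dashed line marks equality. Below the line lie 80 genes, among them Cbx1, Arid1b, Hmga2 and Suz12; Hmgn3, Kdm3a, Sirt3, Smarcb1 and Kat2b lie above it.

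Of 100 listed chromatin genes outside the name rule, 92 were on the array by a single symbol and 87 were tested. Their differences ran from -0.25 to 0.33 with a median of 0.036; 60 were higher and 27 lower, and 0 passed the adjusted p or an unadjusted p of 0.05. Both mutant arrays were above both WT arrays for 18 (20.7%) and below them for 6 (6.9%), beside 12.2% and 12.1% of all tested genes. By group, 14 of 20 Polycomb partners, 10 of 12 NuRD and Sin3 partners, 19 of 29 methyl- and acetyltransferases under other names, 3 of 4 DNA methylation partners, 8 of 13 ISWI and INO80 partners and 6 of 9 histone chaperones were higher. Ncor1, the corepressor that carries Hdac3, was at 10.61 and 10.87 in the mutant arrays and 10.40 and 10.44 in the WT arrays, a difference of 0.32 (SE 0.12). Mbd2, a methyl-CpG reader of NuRD, was at 9.83 and 9.92 in the mutant arrays and 9.69 and 9.46 in the WT arrays (difference 0.31, SE 0.12). Ep300 and Crebbp, the paired acetyltransferase coactivators, differed by 0.29 (SE 0.18) and 0.22 (SE 0.09), and Bptf and Baz1b, ISWI partners, by 0.23 and 0.22. On the lower side, Taf1 differed by -0.25 (SE 0.13). These 7 were picked from the list after their values were seen.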

How the data were processed

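RNA from pooled telencephalon was hybridised to 4 one-colour rat arrays, 2 of mutant and 2 of WT embryos. The authors deposited log2 values made with GCRMA, per the submitters' processing notes, which covers background correction, quantile normalization and summary of probes; the version is not given in the sources used here. The values were used as deposited and run from 2.07 to 16.13, and 57 control probe sets were left out. Depth does not apply to arrays, and 4 arrays limit the precision.

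Probe sets were named from GEO's platform annotation, and 210 of the 211 members' Entrez identifiers were found in RefSeq. The linear model of limma 3.58.1 (lmFit, eBayes; R 4.3.3) was fitted with genotype as the only term to the 18625 probe sets with a mean of at least 3.21, the 40th percentile, with Benjamini-Hochberg adjustment over all of them. The code was tested on simulated data. Tables and sequence searches used Python 3.11.15 with pandas 2.3.3 and numpy 2.4.6.

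The members, lists, motif and tests were chosen with earlier results of these data known. The text names Pax6, every BAF and PBAF subunit on the array, the 12 higher and 12 lower members with the lowest unadjusted p, and the 3 largest differences in each class; further members are named for their known role, after their values were seen. Alternatives were other filters, a pseudocount of 16, quantile normalization, centring on the median, leaving out probe sets of zero variance, a mean over the probe sets of a gene, the replicate number as a block, and leaving out each array.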

Additional observations from a re-analysis of the deposited data

How the results depend on the processing

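In limma, 0 member probe sets passed an adjusted p of 0.05 under every alternative run. Over all tested probe sets, against 0 as reported and 680 at an unadjusted p under 0.05, 1 passed with the filter at the 60th percentile, and 2 each passed with quantile normalization, median centring and without the 249 probe sets of zero variance. The 4 member probe sets with an unadjusted p under 0.05 (2.15%, beside 3.65% of all tested) became 10 with no filter (4.74%, beside 3.19%) and 2 without the zero-variance probe sets (1.09%, beside 3.22%). With 1 array left out they numbered from 1 (without WT replicate 2; 0.54%, beside 3.53%) to 14 (without mutant replicate 1; 7.53%, beside 6.38%); the lone array is then assumed to vary like the others. The 32 member genes without overlap (28.3%, beside 24.3% of all tested genes) became 66 (without WT replicate 2; 58.4%, beside 56.2%) to 77 (without mutant replicate 2; 68.1%, beside 65.7%) with 1 array left out, where overlap is rarer by construction; without mutant replicate 1 the share was 64.6%, below the 66.3% of all tested genes. Of the 63 tested genes that the naming rule gave, 18 changed sign under some alternative that kept the probe set of the gene. All of them did so with 1 array left out. The mean over the probe sets of a gene was left out of this count, although probe sets of a gene could disagree in sign, as for Setd5 and Chd2. Members named only for their known role were not in this count. Some of those changed sign too, such as Suz12, which ran from -0.59 to 0.70 with single arrays left out. The BAF median was 0.063 with no filter and 0.067 as a mean over probe sets. The causes of these shifts were not tested.

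The replicate numbers could not be shown to pair the arrays, since there are only 2 pairs and the labels give no shared litter or batch. The replicate 2 minus replicate 1 differences of the mutant and WT arrays correlated at 0.43 over tested probe sets. Taken by gene, the same measure was 0.67 across the 113 member genes (the same sign in 72) and 0.46 across all 9840 tested genes. This is a single hint from the data, and genes are not independent replicates. With the replicate block, 8 member probe sets had an unadjusted p under 0.05 (4.3%, beside 6.41% of all tested) and 0 passed the adjusted p.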
